A study of Mus musculus with 11 samples.

Results

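The 9 tubulin genes described here were measured in mouse liver before and after paracetamol (acetaminophen, APAP) overdose: the α-tubulins Tuba1a, Tuba1b, Tuba1c and Tuba4a, and the β-tubulins Tubb2a, Tubb2b, Tubb4b, Tubb5 and Tubb6. These 9 of the 31053 genes in the count matrices were taken by symbol from a list, whatever their levels, and each symbol matched 1 gene. All 9 passed the filter on low counts, among 14821 genes tested. Tubb2b passed it only through the injured sections, where its counts were higher. It is therefore left out of the counts of called members below, except under the dependence on processing, which counts all 9.

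Spatial gene expression was measured with the 10x Genomics Visium 3′ assay, which captures polyadenylated RNA from a snap-frozen section on a grid of barcoded spots. A spot is wider than a cell and mixes the RNA of several cells. The 11 libraries were 3 sections of uninjured liver at 0 h (numbered 2, 3 and 4) and sections labelled POD from 24 h (A and B), 36 h (A and B) and 48 h (A to D). Per the study's methods, the mice were C57BL/6JCrl, male unless stated otherwise, fasted and then injected with APAP, a drug whose overdose kills the hepatocytes around the central vein, and 1 mouse was used per time point. No transgene or engineered allele is named for these livers. The labels do not tie sections to mice, so n counts sections, each p covers the spread between sections only, and mouse and time point cannot be told apart.

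Tubulin α-chains and β-chains join as dimers, and dimers polymerise into microtubules, the tracks for organelle transport and secretion in hepatocytes and the fibres of the mitotic spindle in dividing cells. Vertebrates carry several genes for each chain, the isotypes, which differ most in the carboxy-terminal tail and in the tissues that use them. Cells hold the pool in balance by degrading tubulin mRNA while it is being translated when free dimers are in excess, a step that needs TTC5.

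The β-tubulin promoters differ in sequence, and 3 are printed because these genes took different courses after APAP. RefSeq promoters (GRCm38.p6) were found for 7 of the 9 genes and not for Tubb2b or Tubb6. Each line below gives the 250 bases upstream of the annotated start, 5′ to 3′ on the strand of the gene. Capitals mark CCAAT, the core bound by NF-Y, or TTTGAA, a form of the cell cycle genes homology region, read on either strand (ATTGG and TTCAAA on the other). The windows are chr2:25224703-25224952 (minus strand) for Tubb4b, chr17:35838302-35838551 (minus strand) for Tubb5 and chr13:34078009-34078258 (minus strand) for Tubb2a.
Tubb4b: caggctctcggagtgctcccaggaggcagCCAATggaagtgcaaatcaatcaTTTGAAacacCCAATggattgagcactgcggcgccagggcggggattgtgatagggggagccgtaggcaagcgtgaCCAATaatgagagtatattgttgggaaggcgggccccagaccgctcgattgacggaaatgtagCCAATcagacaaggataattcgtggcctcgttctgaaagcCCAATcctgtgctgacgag
Tubb5: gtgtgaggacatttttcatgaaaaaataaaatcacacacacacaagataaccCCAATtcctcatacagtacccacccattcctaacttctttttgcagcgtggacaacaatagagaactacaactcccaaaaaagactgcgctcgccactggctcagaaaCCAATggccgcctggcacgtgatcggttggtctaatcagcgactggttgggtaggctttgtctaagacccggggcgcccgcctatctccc
Tubb2a: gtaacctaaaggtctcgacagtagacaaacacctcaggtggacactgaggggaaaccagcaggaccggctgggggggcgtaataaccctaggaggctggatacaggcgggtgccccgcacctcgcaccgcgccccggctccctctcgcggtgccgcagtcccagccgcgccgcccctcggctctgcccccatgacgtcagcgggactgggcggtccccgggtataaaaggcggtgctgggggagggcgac
The Tubb4b window held 5 CCAAT and 1 TTTGAA, the Tubb5 window held 2 CCAAT, and the Tubb2a window held neither. Among the α-tubulins, Tuba1a held 1 CCAAT and Tuba1c held 1 on the other strand, and Tuba1b and Tuba4a held neither. Over all 32851 promoters in the table, CCAAT on either strand stood in 33.8% and TTTGAA in 16.0% of windows of this length. A match is a string of letters and was not tested as a binding site.

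Several tubulins are hard to tell apart at the 3′ end that the assay reads. Of the 50-base windows in the last 500 bases of their transcripts, 56.3% in Tuba1a, 63.6% in Tuba1b and 68.3% in Tuba1c also occurred in another gene model, each other and pseudogenes among them. The share was 42.4% in Tubb2a, with Tubb2b among the genes that matched, and 35.3% in Tubb4b, where the matches were pseudogenes. It was 0 in Tuba4a, Tubb2b, Tubb5 and Tubb6. In coding sequence, Tuba1a and Tuba1b were 98.3% identical and Tubb2a and Tubb2b 96.5%. Values for Tuba1a, Tuba1b, Tuba1c, Tubb2a and Tubb4b are therefore uncertain where reads from copies were dropped or shared.

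Section totals over the spots kept ranged from 31292663 to 67045372 UMIs, with a median of 15168.5 to 29950 UMIs per spot. Library scaling set the time points apart: TMM factors were 0.783 to 0.811 at 0 h and 0.983 to 1.17 after APAP, and dividing by plain totals instead raised the median change of all genes from 0.01 to 0.54 (log2) at 48 h. Hepatocyte markers, Alb among them, were detected in all 11 sections. All levels below are UMIs per 1000000 of the TMM-scaled total (CPM). A gene is called changed at an adjusted p under 0.05 in edgeR's quasi-likelihood test with Benjamini-Hochberg adjustment over all genes tested. Section ranges are also compared below. All sections lay above the 0 h range in 37.0% of genes tested at 24 h, 29.8% at 36 h and 27.9% at 48 h. They lay below it in 32.1%, 26.2% and 26.6%. From 24 h to 36 h 26.3% lay wholly higher and 27.8% wholly lower, and from 36 h to 48 h 12.8% and 12.9%.

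Among the α-tubulins, Tuba1a and Tuba1b were at their highest at 48 h, Tuba1c peaked at 24 h and Tuba4a was lower at 36 h and 48 h than in uninjured liver. Tuba1a (ENSMUSG00000072235, GRCm38, chromosome 15, 98949837-98953703, minus strand), best known from neurons and from migrating and regenerating cells, stood at 8.78, 11.1 and 12.8 CPM in the 0 h sections. The 24 h sections held 15.03 and 16.9 CPM, the 36 h sections 14.1 and 38.7 CPM, and sections A to D of 48 h 32.6, 33.4, 47.5 and 38.1 CPM. Every injured section lay above every uninjured section, and the 36 h sections A and B lay far apart. Against 0 h, Tuba1a was not called at 24 h (log2 fold change 0.55 ± 0.35 SE, adjusted p = 0.224), and it rose 36 h after APAP by 1.28 ± 0.34 on the log2 scale (adjusted p = 0.0200) and at the 48 h time point by 1.80 ± 0.30 (adjusted p = 0.00107). In bulk sums of a section, fewer cells of a type and less RNA per cell cannot be told apart.

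Tuba1b (ENSMUSG00000023004, chromosome 15, 98931425-98934565, minus strand), a general α-tubulin of proliferating cells, stood at 81.7, 81.9 and 98.2 CPM at 0 h. The 24 h sections held 149.6 and 139 CPM, the 36 h sections 108 and 168 CPM and the 48 h sections 178, 201, 259 and 245 CPM. No injured section overlapped the uninjured range, and the 48 h sections all lay above the 24 h and 36 h sections. The log2 fold change against 0 h was 0.73 ± 0.20 at 24 h (adjusted p = 0.0149), 0.66 ± 0.20 at 36 h (adjusted p = 0.0330) and 1.34 ± 0.18 at 48 h (adjusted p = 0.000238). Without 24 h section A the 24 h value was 0.67 and not called (adjusted p = 0.0787).

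Tuba1c (ENSMUSG00000043091, chromosome 15, 99029891-99038110, plus strand), which lies in the same cluster, took another course. The 0 h sections held 207, 158 and 230.3 CPM, the 24 h sections 574 and 458 CPM, the 36 h sections 169.8 and 159.9 CPM and the 48 h sections 243, 266, 229 and 206 CPM. Both 24 h sections lay above all others, and the 36 h and 48 h ranges overlapped the uninjured range. Tuba1c rose 24 h after APAP by 1.38 ± 0.17 on the log2 scale (adjusted p = 0.000174) and fell by 1.65 ± 0.19 from 24 h to 36 h (adjusted p = 0.00222). It was called neither at 36 h against 0 h (−0.27, adjusted p = 0.260) nor at 48 h against 0 h (0.25, adjusted p = 0.185). Plain totals in place of TMM made the 48 h value a call (0.78, against a median gene at 0.54).

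Tuba4a (ENSMUSG00000026202, chromosome 1, 75214228-75219865, minus strand), whose mRNA, unlike those of most α-tubulins, encodes a protein without the terminal tyrosine, was the leading α-tubulin of uninjured liver. The 0 h sections held 254, 236 and 288 CPM, the 24 h sections 273 and 206 CPM, the 36 h sections 146 and 121 CPM and the 48 h sections 197, 158, 145 and 145 CPM. At 24 h section A lay within the uninjured range and section B below it, and all 6 later sections lay below it. Tuba4a fell by 0.95 ± 0.18 on the log2 scale 36 h after APAP (adjusted p = 0.00392) and at the 48 h time point fell by 0.69 ± 0.14 (adjusted p = 0.00327). With plain totals the 36 h value was −0.51 and still called, and the 48 h value was −0.16 (adjusted p = 0.360), both below the shift of the median gene.

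**Figure D1:**
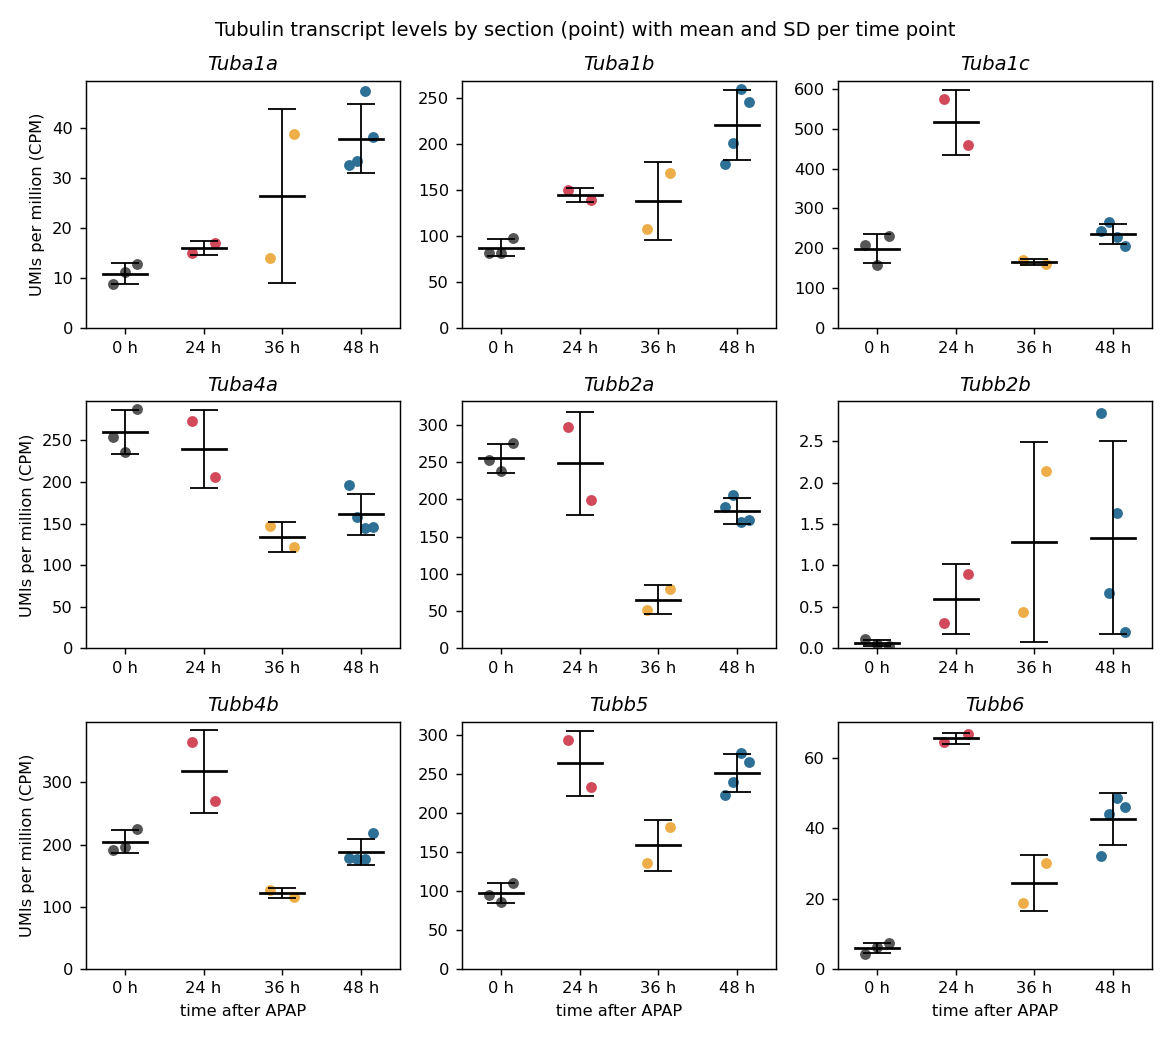
Level of each tubulin (y axis, UMIs per 1000000 of the TMM-scaled total, CPM) by time after APAP (x axis). Each point is 1 section (3 at 0 h, 2 at 24 h, 2 at 36 h, 4 at 48 h), the long bar is the mean and the whiskers are 1 SD. Tuba1c and Tubb4b stand highest at 24 h, Tuba1a and Tuba1b at 48 h, and Tubb2a lowest at 36 h, at 51.6 and 79.4 CPM.

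Among the β-tubulins, Tubb5 and Tubb6 were higher at every time after APAP, Tubb4b was higher at 24 h and lower at 36 h, and Tubb2a dipped at 36 h. Tubb5 (ENSMUSG00000001525, chromosome 17, 35833921-35838306, minus strand), the widely expressed β-tubulin of dividing cells, stood at 94.9, 85.5 and 111 CPM at 0 h. The 24 h sections held 293 and 234 CPM, the 36 h sections 136 and 182 CPM and the 48 h sections 223, 240.1, 278 and 265 CPM. Every injured section lay above the uninjured range, with the 36 h sections lowest among them. The log2 fold change against 0 h was 1.44 ± 0.17 at 24 h (adjusted p = 0.000131), 0.71 ± 0.17 at 36 h (adjusted p = 0.0109) and 1.37 ± 0.15 at 48 h (adjusted p = 7.59e-05).

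Tubb6 (ENSMUSG00000001473, chromosome 18, 67390717-67402749, plus strand), a divergent β-tubulin, was scarce in uninjured liver and had the highest fitted rise of the 8 members other than Tubb2b at each time. The 0 h sections held 4.29, 6.07 and 7.26 CPM, the 24 h sections 64.6 and 66.8 CPM, the 36 h sections 18.8 and 30.2 CPM and the 48 h sections 32.1, 44.1, 48.8 and 46.2 CPM. All 48 h sections lay below the 24 h sections and above both 36 h sections. Tubb6 rose 24 h after APAP by 3.49 ± 0.26 on the log2 scale (adjusted p = 2.61e-05), by 2.06 ± 0.25 at 36 h (adjusted p = 0.000622) and at 48 h by 2.87 ± 0.23 (adjusted p = 2.46e-05). The ratio of mean CPM to 0 h was 11.2 at 24 h, 4.17 at 36 h and 7.28 at 48 h.

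Tubb4b (ENSMUSG00000036752, chromosome 2, 25222160-25224702, minus strand), a β-tubulin found in most tissues and in cilia, stood at 191, 197 and 226 CPM at 0 h. The 24 h sections held 364 and 271 CPM, the 36 h sections 127 and 116 CPM and the 48 h sections 178, 176, 176 and 219 CPM. The 24 h sections lay above and the 36 h sections below the uninjured range, which the 48 h sections overlapped. Tubb4b rose 24 h after APAP by 0.64 ± 0.15 on the log2 scale (adjusted p = 0.00692), fell by 0.75 ± 0.16 at 36 h (adjusted p = 0.00658) and at 48 h was not called (−0.13 ± 0.13, adjusted p = 0.450). Without 24 h section A the 24 h value was 0.41 and not called (adjusted p = 0.0966). With plain totals the 36 h value was −0.31 (adjusted p = 0.130) and the 48 h value became a call (0.40, against a median gene at 0.54).

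Tubb2a (ENSMUSG00000058672, chromosome 13, 34074274-34078007, minus strand), a β-tubulin abundant in brain, was the leading β-tubulin of uninjured liver. The 0 h sections held 253, 238 and 276 CPM, the 24 h sections 298 and 199.5 CPM, the 36 h sections 51.6 and 79.4 CPM and the 48 h sections 190.1, 206, 169 and 172 CPM. Both 36 h sections lay below every other section, and the 48 h sections lay between them and the uninjured range. Tubb2a fell by 1.96 ± 0.22 on the log2 scale 36 h after APAP (adjusted p = 0.000435), and fell by 1.92 ± 0.23 from 24 h to 36 h (adjusted p = 0.00223). From 36 h to 48 h it rose by 1.49 ± 0.21 (adjusted p = 0.0137), a call lost with only those 2 groups fitted (1.49, adjusted p = 0.0975) and with the replicate block (1.60, adjusted p = 0.388). At 48 h its log2 fold change against 0 h was −0.47 ± 0.17 (adjusted p = 0.0421) but 0.06 with plain totals, where the median gene stood at 0.54.

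Tubb2b (ENSMUSG00000045136, chromosome 13, 34126748-34130466, minus strand), a neuronal β-tubulin that neighbours Tubb2a, was near the limit of detection. It gave 5, 3 and 1 UMIs in the 0 h sections, 14 and 28 UMIs at 24 h, 15 and 75 UMIs at 36 h, and 196, 33, 114 and 14 UMIs at 48 h. Injured sections held more UMIs than uninjured ones, yet the 48 h sections spread from 0.202 to 2.84 CPM. Per UMI of the TMM-scaled total, the ratio of summed counts to 0 h was 8.10 at 24 h, 19.4 at 36 h and 20.8 at 48 h. These ratios rest on 9 UMIs in all at 0 h. Since Tubb2b passed the filter only through the injured sections, no test is given for it.

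Counted over the 8 members other than Tubb2b, 5 rose at 24 h and 0 fell, where 23.1% of all genes tested were called higher. At 36 h 4 rose and 3 fell, against 16.8% and 12.4% of all genes. At 48 h 4 rose and 2 fell, against 23.3% and 20.9% of all genes. With plain totals the 48 h split became 6 and 0, against 60.2% and 4.04% of all genes. From 24 h to 36 h 6 tubulins fell, against 8.58% of all genes: Tuba1c, Tuba4a, Tubb2a, Tubb4b, Tubb5 and Tubb6. From 36 h to 48 h 1 rose, Tubb2a, against 1.62% of all genes. The comparisons with 0 h share the same 3 uninjured sections.

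**Figure D2:**
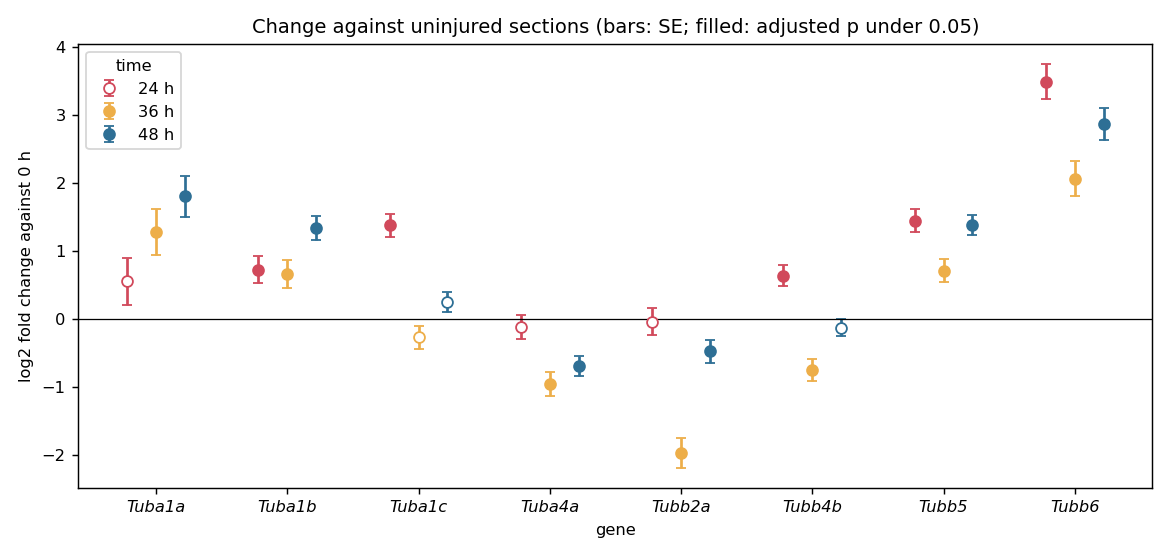
Log2 fold change of 8 tubulins against uninjured sections (y axis) by gene (x axis), with 24 h, 36 h and 48 h side by side. Bars are 1 SE of the fit, and filled points have an adjusted p under 0.05. Tubb6 is highest at each time (3.49, 2.06 and 2.87) and Tubb2a is lowest at 36 h (−1.96). Tubb2b is left out for its low counts.

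Markers of some other cell types also changed after APAP. Of 7 endothelial markers 0 were called higher and 1 lower at each time, and of 3 T cell markers also 0 and 1. No call was made among 3 B cell markers, and 1 of 3 mesothelial markers was called higher at 36 h and at 48 h. Summed mesenchymal markers (7 genes, none at 0) stood at 250 to 286 CPM at 0 h, 198 to 245 CPM at 24 h, 229 CPM in section A and 566 CPM in section B at 36 h, and 674 to 1469 CPM at 48 h, where 6 of 7 were called higher. Phagocyte markers (4 genes, none at 0) went from 409 to 434 CPM at 0 h to 722 to 1327 CPM at 48 h, with 3 of 4 called higher, and 87 of 96 cycling genes were called higher at 48 h. Without the 36 h section B, the 36 h rises of Tuba1a (0.37), Tuba1b (0.30) and Tubb5 (0.48) were no longer called. In the 50% of each section's spots that were highest in hepatocyte score, Tuba1a (1.02), Tuba1b (0.41) and Tubb5 (0.46) were not called at 36 h. In the same spots at 48 h, Tuba1a (1.42), Tuba1b (1.07), Tubb5 (1.14) and Tubb6 (2.68) were called higher and Tuba4a (−0.55) lower, although those spots still held 515 to 1163 mesenchymal UMIs per 1000000, against 203 to 226 at 0 h. The mesenchymal sum at 24 h was no higher than at 0 h, yet single markers moved both ways. Of the 7, 3 gave a call for a rise and 1 for a fall, with a median log2 fold change of 0.85. By 36 h 6 had risen and 1 had fallen, with a median of 1.74. Neutrophil markers (3 genes, none at 0) went from 1.96 to 7.66 CPM at 0 h to 37.7 to 131 CPM at 24 h. Of these, 3 of 3 were called higher. At 24 h 5 tubulins were called higher in the hepatocyte-rich spots too, against 20.9% of all genes there. Phagocyte markers stood at 553 to 595 CPM at 24 h, with 1 of 4 called higher, and at 433 to 526 against 326 to 337 UMIs per 1000000 in the hepatocyte-rich spots. Summed cholangiocyte markers (4 genes, none at 0) stood at 235 to 293 CPM at 0 h and 977 to 1141 CPM at 24 h, with 1 of 4 called higher and 1 lower. The part of these cells in each result was not tested.

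The makeup of the tubulin pool by isotype differed between time points, and the place of its 36 h level depended on the scaling. Summed over the 9 genes, tubulins made 1095, 1014 and 1249 CPM at 0 h, 2032 and 1592 CPM at 24 h, 772 and 898 CPM at 36 h, and 1276, 1325, 1353 and 1337 CPM at 48 h. On this scale the 24 h sections lay highest and the 36 h sections lowest. With plain totals the 36 h sums were 851 and 943 UMIs per 1000000, inside the 0 h range of 822 to 978, and 24 h section B, at 1564, lay below the highest 48 h section, at 1578. The ratio of α to β UMIs was 0.927 to 1.02 at 0 h, 0.991 to 1.06 at 24 h, 1.19 to 1.31 at 36 h and 0.903 to 1.04 at 48 h, so the 36 h sections alone lay outside the range of the rest. UMIs were not divided by length, as each marks 1 captured 3′ end, and capture may differ between genes.

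Within the α-chain, Tuba4a went from 46.8% of UMIs at 0 h to 24.6% at 48 h as a mean over sections, and Tuba1b went from 15.7% to 33.7%. Tuba1c made 35.5% at 0 h, 56.3% at 24 h and 36.0% at 48 h, and Tuba1a went from 1.97% to 5.77%. Within the β-chain, Tubb2a made 45.4% at 0 h and then 27.5%, 17.4% and 27.7% at the later time points. Tubb5 went from 17.2% at 0 h to 42.5% at 36 h and 37.6% at 48 h, and Tubb6 from 1.04% to 7.49% at 24 h and 6.39% at 48 h. Tubb4b went from 36.3% at 0 h to 28.05% at 48 h. These shares are descriptions with no test.

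**Figure D3:**
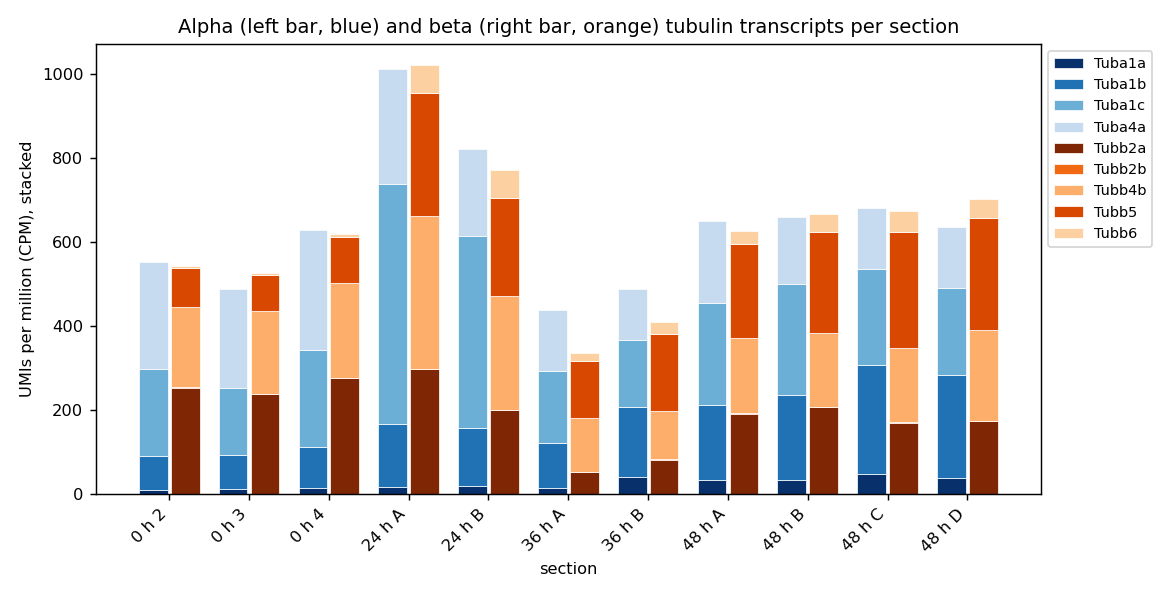
Stacked tubulin levels (y axis, CPM) in each of the 11 sections (x axis), with the α-chains in blue on the left and the β-chains in orange on the right. The pairs of bars are near in height outside 36 h, where α exceeds β by 1.19 to 1.31 times, and the Tuba4a and Tubb2a blocks shrink after 24 h.

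Across the 11 sections, Pearson's r between log2 levels of members is given as a description, over points that share a time point. It was 0.966 for Tubb5 with Tubb6, 0.940 for Tuba1a with Tuba1b, 0.896 for Tuba1b with Tubb5 and 0.822 for Tuba1b with Tubb6. It was 0.829 for Tuba1c with Tubb4b, 0.787 for Tubb2a with Tubb4b, 0.763 for Tuba4a with Tubb2a and −0.767 for Tuba1a with Tuba4a. Of 7085 genes with at least 10 CPM on average, those most like the summed tubulins over the 11 sections were Ran (r = 0.955), a GTPase of nuclear transport and spindle assembly, Hnrnpab (0.937), Eef1e1 (0.933), the cap-binding factor Eif4e (0.933), Ly96 (0.922), Rpf2, Dmxl1, the dynactin subunit Dctn5, Nt5m and Tma7 (0.890).

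Genes of tubulin folding and microtubule handling are given for context. Their lists were compared at 48 h with 0 h, where the median of all genes stood at 0.01. Of all genes 23.3% were called higher and 20.9% lower there, so counts of short lists near these shares say nothing particular to a list. Of the 7 tested subunits of CCT, the chaperonin that folds tubulin and actin, 0 rose and 2 fell (list median −0.20): Tcp1 (124 to 100.5 CPM, log2 fold change −0.31 ± 0.10, adjusted p = 0.0229) and Cct8 (−0.26, adjusted p = 0.0206). Of 6 prefoldin subunits, which hand nascent chains to CCT, 0 rose and 2 fell (median −0.07), Pfdn6 (−0.43, adjusted p = 0.00898) and Pfdn2 (−0.28, adjusted p = 0.0127). Of 7 cofactors of dimer assembly, 2 rose and 1 fell (median 0.04). Tbcb, which binds α-tubulin, was at its highest at 24 h, with 44.2 CPM at 0 h, 95.8 CPM at 24 h (1.12 on the log2 scale, adjusted p = 0.000310) and 57.0 CPM at 48 h (0.37, adjusted p = 0.0398), and Arl2 rose by 0.31 (adjusted p = 0.0251). Ttc5, the sensor of tubulin mRNA decay, fell at 24 h (−0.72, adjusted p = 0.0198) and was not called at 36 h or 48 h. Its part in tubulin levels was not tested.

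Of 12 tubulin-modifying enzymes, 3 rose and 2 fell (median 0.02). Atat1, the α-tubulin acetyltransferase, fell from 16.9 to 9.72 CPM (log2 fold change −0.80 ± 0.29, adjusted p = 0.0446), and Sirt2, a deacetylase, fell by 0.37 (adjusted p = 0.00806). Ttll12, of the tubulin tyrosine ligase-like family, rose by 1.19 at 24 h and 0.47 at 48 h (adjusted p = 0.00208). Of 7 stathmins and severing enzymes, 3 rose and 2 fell (median 0.23), led by Stmn1, a dimer-sequestering protein of proliferating cells, at 8.47 CPM at 0 h, 9.98 CPM at 24 h, 17.3 CPM at 36 h and 63.5 CPM at 48 h (2.91 ± 0.33 on the log2 scale, adjusted p = 0.000136). The severing enzymes Spast (−0.30, adjusted p = 0.0198) and Katna1 (−0.27, adjusted p = 0.0256) fell.

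Of 20 microtubule-associated proteins, 12 rose and 4 fell (median 0.47), and of 19 motors 9 rose and 1 fell (median 0.32). Map7d1 rose from 35.7 to 88.7 CPM at 24 h (1.32) and stood at 56.6 CPM at 48 h (0.67 ± 0.09 on the log2 scale, adjusted p = 0.000298), while its relative Map7 fell by 0.61 at 48 h (adjusted p = 0.00395). The plus-end binding proteins Mapre1 (0.49, adjusted p = 0.00312) and Mapre2 (0.54, adjusted p = 0.00504) rose. Dync1h1, the heavy chain of cytoplasmic dynein, rose by 1.01 at 24 h (adjusted p = 0.000289) and 0.32 at 48 h (adjusted p = 0.0438), and the kinesin Kif1b fell by 0.72 (adjusted p = 0.00193). Of 10 genes of the γ-tubulin ring, which seeds microtubules, 3 rose and 1 fell (median 0.11), with Tubgcp2 at 0.42 (adjusted p = 0.00719) and Mzt2 at −0.61 (adjusted p = 0.00103). Of the other tubulins, 5 of 9 listed were tested and 2 rose (median 0.35).

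Across spots at 48 h, counts of Tuba1b and Tubb5 had the highest variance over mean, and those of Tuba4a and Tubb2a stayed near random scatter. Each spot was thinned to 5000 UMIs, which left out 1 to 260 spots per section. Thinning gives each spot the same total, as plain totals do, so the shares below are not on the TMM scale. Under plain totals the median gene stood 0.54 higher (log2) at 48 h than at 0 h. A UMI of Tuba1b was then found in 27.4% to 34.4% of spots at 0 h and 54.2% to 68.7% at 48 h, and of Tubb5 in 28.8% to 34.5% and 63.2% to 72.2%. Tubb6 was found in 1.503% to 2.75% of spots at 0 h, 26.2% to 28.7% at 24 h, 9.11% to 13.4% at 36 h and 15.5% to 23.2% at 48 h. Without thinning the Tubb6 shares were 9.34% to 11.5% at 0 h and 38.8% to 64.6% at 48 h. Tubb2a was found in 62.3% to 65.4% of spots at 0 h, 25.6% to 34.1% at 36 h and 62.3% to 68.6% at 48 h, so fewer spots held it at 36 h. Its shares at 0 h and 48 h overlapped, although on the TMM scale it was called lower at 48 h.

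The variance of thinned counts divided by their mean, which is 1 for counts scattered at random, lay between 0.967 and 1.03 for Tuba1b at 0 h and between 1.62 and 1.80 at 48 h. It lay between 1.503 and 1.72 for Tubb5 at 48 h, and for Tuba4a (1.03 to 1.08) and Tubb2a (1.02 to 1.09) it stayed near 1. At 48 h it was 1.13 to 1.23 for Tuba1a and 1.08 to 1.22 for Tubb6. Tubb4b (1.13 to 1.23) and Tuba1c (1.05 to 1.19), not called higher at 48 h, gave like values at higher mean counts. Thinned means at 48 h were 0.985 to 1.30 UMIs per spot for Tubb4b and 1.15 to 1.52 for Tuba1c. They were 0.180 to 0.282 for Tuba1a, 0.173 to 0.295 for Tubb6, 1.01 to 1.53 for Tuba1b and 1.21 to 1.62 for Tubb5. For equal relative differences between spots this ratio is higher at a higher mean, so it does not rank members with unlike means. Summed over Tuba1a, Tuba1b, Tubb5 and Tubb6, it went from 1.01 to 1.04 at 0 h to 2.34 to 2.71 at 48 h. A spot's level was also correlated with the mean of its touching neighbours, here from unthinned counts divided by the total of the spot. Depth was not evened out for this, and its part in r was not tested. For Tuba1b r was 0.0221 to 0.0803 at 0 h and 0.484 to 0.618 at 48 h. For Tuba4a r was 0.144 to 0.192 at 0 h and 0.0369 to 0.211 at 48 h. At 0 h it was 0.223 to 0.356 for Tuba1c and 0.113 to 0.228 for Tubb4b, above Tuba1b. These r values are descriptions over spots of shared libraries.

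**Figure D4:**
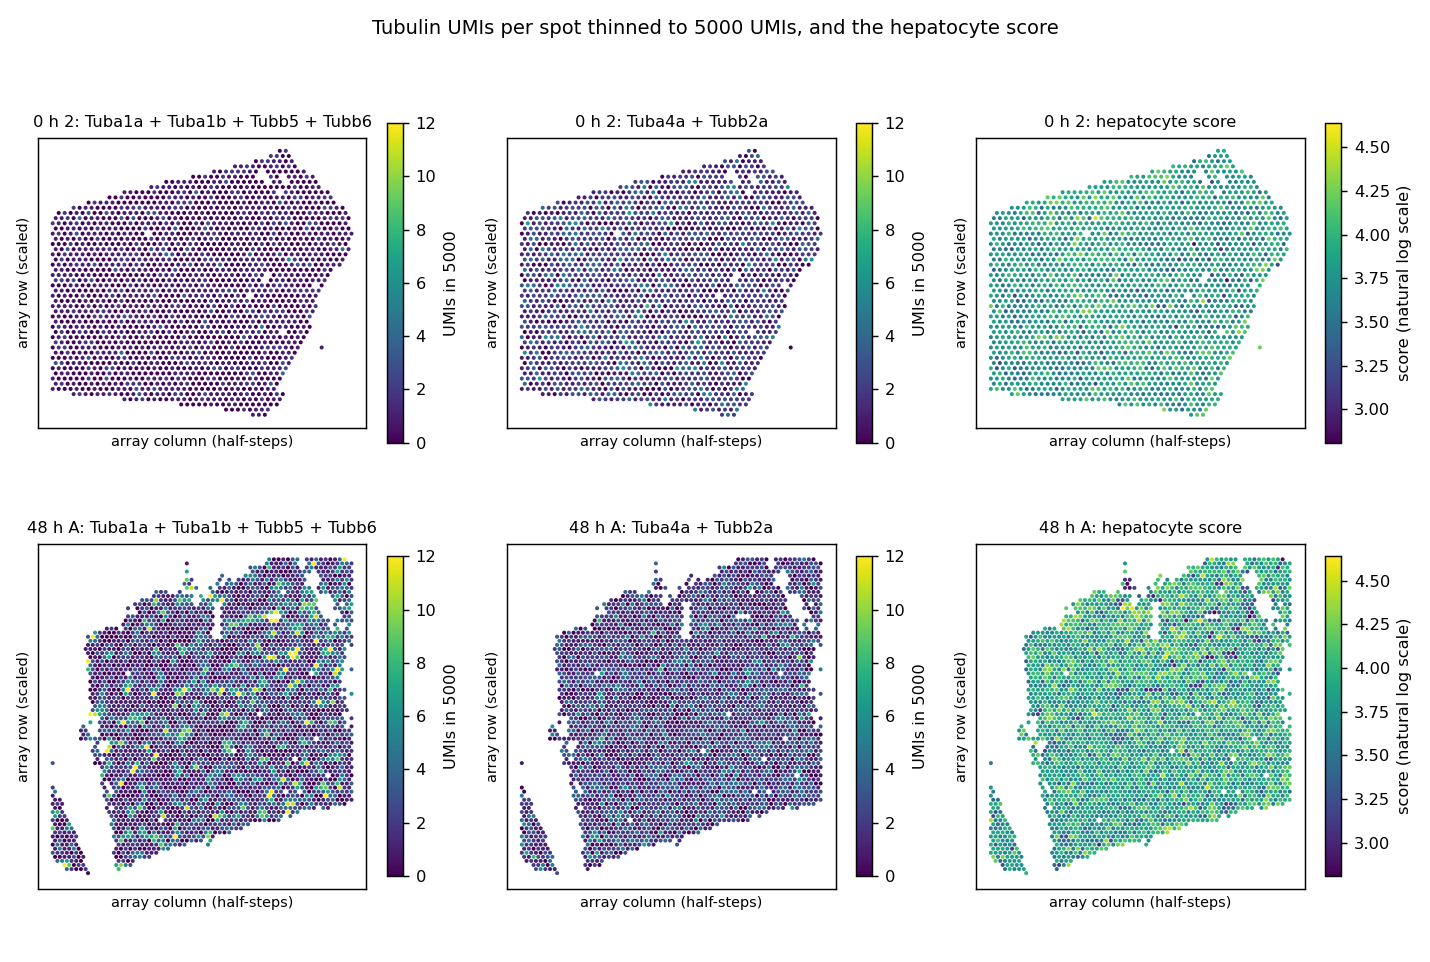
Spots of the uninjured section 2 (top) and the 48 h section A (bottom) on the array (x axis, column in half-steps, y axis, row scaled to match). Colour gives the UMIs of Tuba1a, Tuba1b, Tubb5 and Tubb6 summed (left) and of Tuba4a and Tubb2a summed (middle) per spot thinned to 5000 UMIs, capped at 12, and the hepatocyte score (right, natural log scale). The first set gathers in patches at 48 h, with a mean of 2.58 UMIs per spot and a highest value of 17, and the second set does not.

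The spots with more of the rising tubulins at 48 h were those with fewer hepatocyte and more non-parenchymal and cycling transcripts. In each section the 10% of spots lowest in hepatocyte score, or highest in mesenchymal, phagocyte or cycling score, were summed and compared with the other spots in an edgeR fit with the section as a block. No tubulin entered a score, and Tubb4b, which the list of cycling genes holds, was left out of it. The classes overlapped, since 30.2% to 48.3% of the spots of a class were also in another one at 48 h, so they are not separate tests. In hepatocyte-low spots at 48 h, 4 of the 8 tubulins other than Tubb2b were higher and 2 lower, against 29.0% and 29.1% of all genes. Tuba1a was 1.12 to 1.28 higher per section on the log2 scale (fit 1.20 ± 0.05, adjusted p = 2.27e-19), Tuba1b 0.75 to 1.10 higher (0.94 ± 0.06, adjusted p = 2.21e-14), Tubb5 0.64 to 0.90 higher (0.79) and Tubb6 0.58 to 1.20 higher (0.93). Tuba4a was lower in 4 of 4 sections (−0.68 ± 0.05, adjusted p = 2.51e-12) and Tubb2a too (−0.37 ± 0.06, adjusted p = 1.52e-06). Tuba1c (0.06, adjusted p = 0.406) and Tubb4b (0.06, adjusted p = 0.412) were not called.

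In mesenchyme-high spots at 48 h, Tuba1a, Tuba1b, Tubb5 and Tubb6 were higher and Tuba4a and Tubb2a lower, 4 and 2 against 29.9% and 31.9% of all genes. In phagocyte-high spots these counts were again 4 and 2, against 30.6% and 31.0%. Tuba1a was higher by 1.37 ± 0.06 in mesenchyme-high and 1.18 ± 0.07 in phagocyte-high spots, and Tuba4a stood at −0.86 and −0.75. In cycling-high spots 6 tubulins were higher and 2 lower, against 32.0% and 24.6% of all genes. Tubb4b (0.32 ± 0.04, adjusted p = 2.93e-12) and Tuba1c (0.17 ± 0.04, adjusted p = 0.000115) were called there, with Tuba1b at 0.95, Tubb5 at 0.82, Tubb6 at 0.999 and Tuba4a at −0.57. The difference between classes was not tested. With plain totals, where the median gene stood 0.37 to 0.43 higher in these classes, Tubb2a was 0.03 to 0.11 in all 4 and Tuba4a −0.42 to −0.26. The counts then became 6 higher and 1 lower in the first 3 classes and 7 and 1 in cycling-high spots, where 59.2% to 60.6% of all genes were called higher and 11.2% to 13.1% lower.

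In uninjured liver the same ranking of spots gave small contrasts for most members. In the 0 h sections the log2 ratio of Tuba1b was −0.09 to −0.07 in hepatocyte-low, 0.04 to 0.22 in mesenchyme-high, 0.06 to 0.11 in phagocyte-high and −0.08 to −0.03 in cycling-high spots, all below its lowest 48 h ratio in any of these classes, 0.75. Tubb5 lay between −0.23 and 0.00 in the 4 classes at 0 h. Tuba4a lay between −0.18 and 0.02 at 0 h and between −1.13 and −0.54 at 48 h. Tuba1a was already higher in mesenchyme-high spots at 0 h, by 0.36 to 0.89 from 46 to 87 UMIs, against 1.06 to 1.55 at 48 h. The classes at 0 h shared 7.73% to 12.9% of their spots, near the 10% that unrelated classes of this size would share. Whether the scores set classes apart at 0 h as they do at 48 h was not tested.

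When spots were ranked by cycling score only within the 50% of spots highest in hepatocyte score, an alternative chosen after seeing the data, 6 tubulins were higher at 48 h and 1 lower, against 11.2% and 14.0% of all genes. Tuba1b was higher by 0.59, Tubb5 by 0.50, Tubb6 by 0.82, Tuba1a by 0.46, Tubb4b by 0.31 and Tuba1c by 0.12, and Tuba4a was lower (−0.32). Tubb2a (−0.04, adjusted p = 0.550) was not called there. For Tubb4b this value was close to that over all spots, and for Tuba1a it was under the 1.01 found over all spots.

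**Figure D5:**
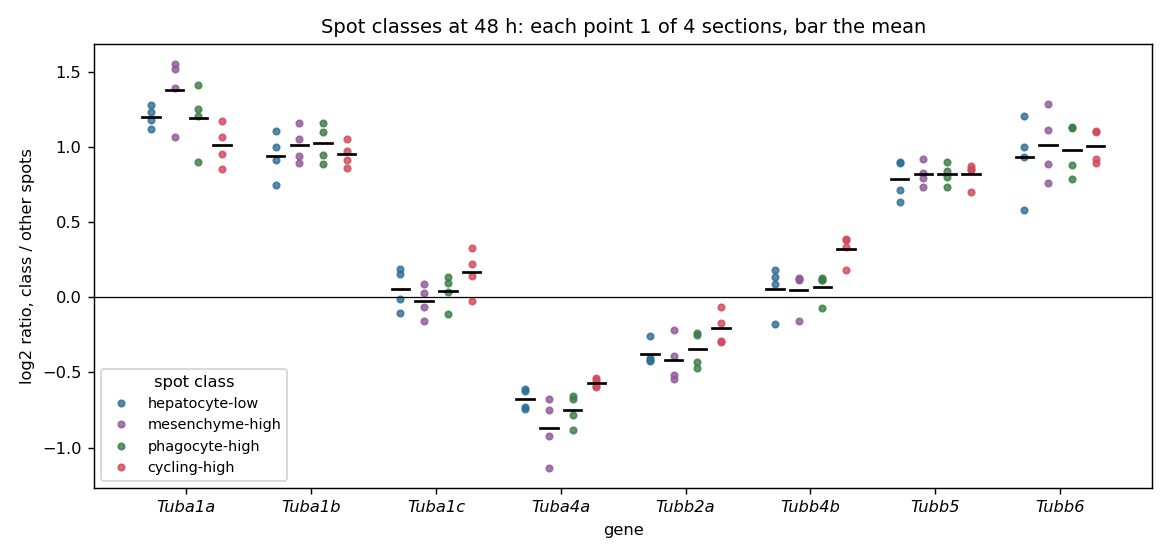
Log2 ratio of the level in a class of spots to that in the other spots of the section (y axis) for 8 tubulins (x axis) at 48 h. Each point is 1 of 4 sections, colours give the 4 classes and bars are means. All points of Tuba1a, Tuba1b, Tubb5 and Tubb6 lie above 0 and all of Tuba4a and Tubb2a below it, and Tubb4b is above 0 in all 4 sections in the cycling-high class only. Under plain totals the Tubb2a fit is above 0 (0.03 to 0.11). Tubb2b is left out for its low counts.

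The contrast between hepatocyte-low and other spots was also taken earlier after APAP. In hepatocyte-low spots at 24 h, 3 tubulins were higher, against 7.93% of all genes: Tuba1a (0.71 ± 0.12, adjusted p = 7.63e-05), Tuba1b (0.40, adjusted p = 0.00160) and Tubb6 (0.68, adjusted p = 0.000235). Tubb5, which had risen across the section, was not called there (0.16, adjusted p = 0.177). At 36 h 5 tubulins were higher, against 7.05%: Tuba1a (0.71), Tuba1b (0.66), Tubb4b (0.26, adjusted p = 0.0410), Tubb5 (0.59, adjusted p = 1.10e-05) and Tubb6 (0.89). Tuba4a was not called at 24 h (−0.02) or 36 h (−0.08), and whether its contrast differed from that at 48 h was not tested.

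Along the lobule of uninjured liver, 1 tubulin was called. The 25% of spots on the portal side, by a score from central and portal genes, were compared with the 25% on the central side, and Tubb6 was higher on the portal side (0.51 ± 0.15, adjusted p = 0.0151), in 3 of 3 sections, against 9.54% of all genes. Its levels there were 4.91 to 8.16 CPM against 3.24 to 6.02 CPM, and the call was lost when any section was left out (0.48 to 0.54). With plain totals 1 tubulin was higher and 1 lower, against 6.95% and 13.0% of all genes. Tubb4b was lower on the portal side in 3 of 3 sections (−0.21 ± 0.08, adjusted p = 0.0772) and Tubb2a higher in 3 of 3 (0.18 ± 0.10, adjusted p = 0.287), and neither was called.

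Spot by spot at 48 h, the rising members went together and apart from Tuba4a. The mean r over the 4 sections was 0.319 for Tuba1b with Tubb5, 0.209 with Tuba1a and 0.1898 with Tubb6, and −0.0632 for Tuba4a with Tubb5. Tuba1b had a mean r of 0.435 with the mesenchymal, 0.413 with the phagocyte and 0.385 with the cycling score, and −0.257 with the hepatocyte score. The genes most like the summed tubulins over the spots of the 48 h sections, of 7084 compared, were Fth1 (0.329) and Ftl1 (0.318), the ferritin chains, Tmsb4x (0.322) and Tmsb10, which bind actin monomers, Lyz2 (0.315), the lysozyme of phagocytes and a gene of that score, the lysosomal genes Psap, Ctsd and Ctsb (0.259), and Lgals3 and S100a6. Alb (−0.389) and Apoa2 (−0.348), both secreted by hepatocytes, were the least like them. These values are descriptions over spots of shared libraries.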

How the data were processed

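Visium libraries of 11 mouse liver sections were analysed. The deposited values were raw UMI counts per gene and spot barcode, which the authors made with Space Ranger 1.0.0 on mm10 per the labels and file headers, with no normalisation. Seurat 4.1.1 is also listed in the submitters' processing notes. Spots on tissue, by the authors' mask, entered if they had at least 800 genes and no more than 20% mitochondrial UMIs, and their counts were summed per section. Sections of a group differed by more than sampling noise, so none was counted as a duplicate.

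Section sums were tested with edgeR 4.0.16 in R 4.3.3 (filterByExpr, TMM, robust quasi-likelihood fit of all 11 sections, Benjamini-Hochberg adjustment over all genes), and the steps were tested on simulated data. Class sums used the same test with section as a block. Scores were means of natural log scaled counts over marker lists on spots thinned to 2000 UMIs. The cycling score used the Seurat S and G2/M genes without tubulins, 96 of 97. Counts give precision for counting error only. Alternatives were total-count and DESeq2 scaling, DESeq2 1.42.0, no filter, other samples, spots and class sizes, left-out sections and a replicate block.

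The members and gene lists were chosen with earlier results of these data known. Named genes were the 9 members, at most 4 per other list with the largest change at 48 h among called genes with a mean of at least 10 CPM, and the 10 genes most like the summed members across sections and across 48 h spots. Ttc5, the 1 gene of its list, was named outside this rule. Promoter sequences and gene coordinates came from RefSeq and GENCODE on GRCm38, and protein sequences were not used here.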

Additional observations from a re-analysis of the deposited data

Results flagged for a closer look

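In groups of 4 sections, 5 of 46 sets of values had a section standing apart by Dixon's criterion (critical ratio 0.829), where chance marks about 1 in 20. Tubb4b was at 219 CPM in the 48 h section D, above the 176 to 178 CPM of the other sections. In that section, the log2 ratio of Tubb4b was −0.16 in mesenchyme-high and −0.073 in phagocyte-high spots, where the other sections lay above 0, and the ratio of Tubb5 in cycling-high spots was 0.70, the lowest of the 4. Tubb2a in hepatocyte-low spots had a log2 ratio of −0.25 in the 48 h section A, nearest to 0 of the 4.

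Tubb2a in hepatocyte-low spots also moved in opposite directions at neighbouring times: it was lower than in the other spots in every section at 24 h and 48 h and higher in both sections at 36 h. The mean log2 ratio at 24 h minus that at 36 h was −0.32, and that at 36 h minus that at 48 h was 0.47. These differences were not tested, and the 24 h and 36 h contrasts were not called themselves (−0.23, adjusted p = 0.0501, and 0.10, adjusted p = 0.530).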

How the results depend on the processing

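Over all alternatives, 1362 values of single tubulins kept their direction and their side of the threshold, 67 gained a call, 68 lost one and 5 changed sign. All 5 were Tubb2a under total-count scaling, with log2 fold changes of 0.058 at 48 h against 0 h, 0.038 in hepatocyte-low, 0.030 in mesenchyme-high, 0.063 in phagocyte-high and 0.11 in cycling-high spots, which follows the higher median of all genes under that scaling. Of all 9 tubulins, Tubb2b included, the number called at 36 h against 0 h was 4 in the 50% of spots highest in hepatocyte score. For 36 h against 24 h it was 0 with only those 2 groups fitted, 4 sections in all, and 3 with the replicate block, and for 48 h against 36 h it was 3 with total-count scaling, 6 with DESeq2, 3 without a filter, 0 with only those 2 groups and 0 with the replicate block. Portal against central spots gave 2 with total-count scaling, 3 without a filter and 6 with only the 0 h sections, and hepatocyte-low spots at 24 h gave 7 with total-count scaling and 5 with only the 24 h sections. With only the 2 groups, 1 of 13747 genes tested was called for 36 h against 24 h and 0 of 14734 for 48 h against 36 h, and the replicate block left 82 and 0 of 14717, while DESeq2 called 1224 genes for 48 h against 36 h. Of all genes, 3122 of 13851 were called at 36 h against 0 h in the hepatocyte-rich spots. For 48 h against 36 h, total-count scaling called 516 of 14821 and no filter 397 of 20621. Portal against central spots gave 2698 of 13535 with total-count scaling and 2461 of 19806 without a filter. With only the 0 h sections they gave 2899 of 11990. Hepatocyte-low spots at 24 h gave 3991 of 14492 with total-count scaling and 3283 of 12826 with only the 24 h sections. Except where noted, the cause was not tested.

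With 1 section left out, the number called ranged from 3 to 6 at 24 h, from 4 to 8 at 36 h and from 6 to 7 at 48 h against 0 h, from 3 to 6 for 36 h against 24 h, from 1 to 5 for 48 h against 36 h and from 2 to 4 for hepatocyte-low spots at 36 h. It was 0 for portal against central spots, where 1494 to 1674 of all genes were called. These are counts of all 9 tubulins, Tubb2b included. Where a section of a group of 2 was left out, that group rests on 1 section, assumed to vary like the others. Leaving out a 0 h or 48 h section avoids this, and calls of all genes moved there too. They ranged from 4839 to 6076 at 24 h, from 2709 to 4327 at 36 h and from 4926 to 6104 at 48 h. For 36 h against 24 h they ranged from 1558 to 2212, and for 48 h against 36 h from 45 to 739. At 24 h against 0 h, Tuba1b (0.67) and Tubb4b (0.41) were no longer called without the 24 h section A, and Tubb2a at 48 h was lost in most such fits. Section letters are shared between injured groups, but sections with 1 letter did not deviate together throughout (r of 0.391 between 24 h and 36 h, and −0.144, −0.168, 0.0913 and −0.293 with 48 h), so the block pairs sections by letter only. Depth limits Tubb2b most, with 9 UMIs in all at 0 h.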

Other observations

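Tubb3, the β-tubulin of neurons, was near absent from uninjured liver and was chosen for mention after its values were seen. It gave 2 UMIs over the 3 uninjured sections, 107 UMIs at 24 h, 60 UMIs at 36 h and 428 UMIs at 48 h, and the 48 h sections held 72 to 149 UMIs each, or 1.45 to 2.14 CPM. At 48 h its fitted log2 fold change against the other spots of the same sections was 1.35 in phagocyte-high and 1.18 in cycling-high spots. These classes share spots and were not the only ones fitted. Like Tubb2b, it passed the filter only through the injured sections, so no p is given for it here.

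Spindle genes from the lists of microtubule-associated proteins and motors, also chosen after their values were seen, were higher at 48 h than at 0 h (log2 fold changes of 5.36, 5.63 and 3.64 for the 3 given, adjusted p = 2.57e-05, 3.56e-05 and 4.04e-05). Prc1, which bundles the midzone of the spindle, stood at 0.198 to 0.286 CPM at 0 h, 0.128 to 0.258 CPM at 24 h, 0.869 to 1.43 CPM at 36 h and 4.62 to 13.6 CPM at 48 h. Tpx2, a spindle assembly factor, went from 0.147 to 0.286 CPM at 0 h over 0.383 to 0.731 CPM at 24 h to 4.97 to 16.8 CPM at 48 h, and the mitotic kinesin Kif11 from 0.258 to 0.352 CPM to 1.97 to 4.98 CPM, with 0.194 to 0.223 CPM at 24 h.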
